A study of Mus musculus with 8 samples.

Results

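Among the genes that these leukaemia cells expressed well at 0h, 53 protein-coding genes had lost at least 35% of their normalised level by 24h. Members were chosen on counts-per-million values (CPM), a gene's count divided by the library's total over all gene rows and scaled by a constant. A member had a mean of at least 10 CPM at 0h, a 24h mean of at most 65% of the 0h mean, and both 24h libraries below both 0h libraries, a pattern without overlap that 37.6% of the genes at that 0h level showed. Of 47069 gene rows, 8450 protein-coding genes reached the 0h level, and 65 of those met the whole rule, which is 0.769% of them. A further condition left 17 genes out by name, 12 of which met the rule, so that 53 genes remained. Because the 0h and 24h values chose the members, the difference between those times is a description here and carries no test.

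The study measured RNA in GFP-positive MLL-AF9 acute myeloid leukaemia cells sorted from the bone marrow of leukaemic mice, with the strain labelled C57BL/7. All 8 libraries come from leukaemia cells labelled TetO-Klf4-AML, in which doxycycline switches on Klf4, a zinc-finger transcription factor. The groups are the labelled times 0h, 6h, 12h and 24h, with 2 libraries each and none labelled as lacking the transgene, so time and Klf4 induction cannot be told apart. The labels do not state the event from which the hours count, the animals' age, how many mice were used, or whether libraries of 1 time came from separate mice, so p-values measure only the spread between libraries, which may be technical.

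MLL-AF9 is a fusion of part of a histone methyltransferase with a transcription elongation factor, and it holds myeloid progenitors in a self-renewing state. Such cells express an open, mixed set of genes of the progenitor and granulocyte-monocyte stages. They can also express genes better known from other organs. KLF4 binds GC-rich CACCC elements, can activate or repress the genes it binds, and is associated with monocyte differentiation.

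Library totals over gene rows ran from 20394546 to 26041347 counts. Klf4 itself, which checks the labels, stood at 2.65 and 4.27 CPM in the 0h libraries and at 78.0 to 152 CPM in the 6 later ones. The 12 markers of leukaemic myeloid progenitors were all detected, with summed levels of 3937 and 3902 CPM at 0h and 3654 and 3644 CPM at 24h. No library was left out.

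Together the 53 genes summed to 3842 and 3863 CPM in the 0h libraries, 3158 and 3249 CPM at 6h, 2822 and 2807 CPM at 12h and 2344 and 2341 CPM at 24h. The 4 times did not overlap. The highest member was Plac8, a small cysteine-rich protein of myeloid cells, which made up 25.4% of the summed 0h level. At 0h the members ranged from 10.02 to 977 CPM, with a median of 32.5 CPM against 55.0 CPM over the 8450 genes of the same minimum level. Per exon length the distance was small, with a median of 10.96 RPKM (CPM per kilobase of exon) for members and 11.7 for the 8450 genes. At 24h the members stood at 38.8% to 64.8% of their 0h means, with a median of 60.5%, and 6 of the 53 stood at or under 50%.

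The borders cut through a continuous range. Just inside the ratio were Ugdh at 64.6% and Dnph1 and Tuba8 at 64.8% of 0h, and just outside were Cpped1 at 65.1%, Slc25a12 at 65.2% and Snapc5 at 65.3%. At the level border, Fcgr4 at 10.02 CPM, Abcb9 at 10.1 CPM and Diras2 at 10.4 CPM were inside, whereas Evl at 9.92 CPM, Inka2 at 9.64 CPM and Nxpe5 at 9.63 CPM were outside. With CPM on TMM-scaled library sizes, 91 genes met the rule, all 53 members among them, and without 24h replicate 1, 94 genes met it, of which 49 were members. The number of members therefore belongs to these cut-offs and this scaling.

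C2cd4a, Chga, Serpina3g and Afp had 4 of the 6 lowest 24h levels relative to 0h. C2cd4a encodes a small C2-domain protein known from endothelial cells and pancreatic islets. It measured 16.9 and 18.9 CPM at 0h, 13.2 and 13.5 CPM at 6h, 11.4 and 12.6 CPM at 12h, and 6.95 and 6.93 CPM at 24h. Each time lay below the one before without overlap, and the 24h mean was 38.8% of the 0h mean, the lowest of the 53. Chga encodes chromogranin A, the core protein of dense secretory granules in neuroendocrine cells. Its libraries read 31.4 and 33.6 CPM at 0h, 28.1 and 28.6 CPM at 6h, 22.5 and 21.9 CPM at 12h, and 13.9 and 12.5 CPM at 24h. Again no times overlapped, and the 24h mean was 40.6% of 0h.

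Serpina3g encodes a serine protease inhibitor family member that acts inside cells on cathepsins. It gave 32.2 and 32.0 CPM at 0h, 22.1 and 26.2 CPM at 6h, 20.2 and 19.8 CPM at 12h, and 13.5 and 15.2 CPM at 24h, so that the 6h libraries lay apart from each other but below 0h and above 12h. Afp encodes alpha-fetoprotein, a plasma protein of fetal liver and yolk sac. It gave 28.1 and 26.3 CPM at 0h, 24.4 and 25.2 CPM at 6h, 21.0 and 18.7 CPM at 12h, and 13.3 and 13.5 CPM at 24h, again with no overlap between times. Serpina3g ended at 44.7% and Afp at 49.3% of 0h. Etv5 and Fcgr4, described below, were the others at or under 50%. Counts of Serpina3g are uncertain because near-identical Serpina3 copies lie beside it and can share reads with it.

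Afp and Chga were read here in cells sorted from bone marrow. The 10 other hepatocyte and neuroendocrine markers examined summed to between 1.34 and 2.30 CPM per library, 9 of them were under 1 CPM in every library, and Snap25 was at 0. Those defining markers were thus at or near 0 at each time. In bulk RNA, fewer cells of a type and less RNA per cell cannot be told apart.

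The 250 bases before the RefSeq start of 45 of the 53 genes were read from a RefSeq promoter table of build GRCm38.p6. They are shown for the 4 leading genes, which include the 3 lowest 24h levels relative to 0h, and for Ccl9 and Plac8, the members of highest level. Chga lies on chromosome 12 at 102554969 to 102565028 on the plus strand, Serpina3g on chromosome 12 at 104236245 to 104241939 on the plus strand, Afp on chromosome 5 at 90490737 to 90508907 on the plus strand, and C2cd4a on chromosome 9 at 67830489 to 67832330 on the minus strand. Each stretch is written 5′ to 3′ on the gene's strand and ends before the annotated start. For Plac8 the 210 bases outside the GENCODE gene are shown. Capitals mark TATAAA on the gene's strand, the KLF motif (GGGNGTGG on one strand, CCACNCCC on the other) or the AP-1 motif (TGANTCA, the same on both strands).
C2cd4a, chr9:67832331-67832580, minus: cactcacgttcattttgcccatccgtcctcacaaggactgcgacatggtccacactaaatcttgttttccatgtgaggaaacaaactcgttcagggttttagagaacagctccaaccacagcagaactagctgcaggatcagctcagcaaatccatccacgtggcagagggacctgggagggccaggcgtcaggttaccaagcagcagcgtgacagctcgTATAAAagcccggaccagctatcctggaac
Chga, chr12:102554691-102554940, plus: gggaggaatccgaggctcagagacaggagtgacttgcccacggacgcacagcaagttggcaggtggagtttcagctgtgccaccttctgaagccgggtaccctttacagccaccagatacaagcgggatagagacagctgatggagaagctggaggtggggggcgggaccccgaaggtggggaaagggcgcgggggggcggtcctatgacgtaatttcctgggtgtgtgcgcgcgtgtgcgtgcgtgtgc
Serpina3g, chr12:104235897-104236146, plus: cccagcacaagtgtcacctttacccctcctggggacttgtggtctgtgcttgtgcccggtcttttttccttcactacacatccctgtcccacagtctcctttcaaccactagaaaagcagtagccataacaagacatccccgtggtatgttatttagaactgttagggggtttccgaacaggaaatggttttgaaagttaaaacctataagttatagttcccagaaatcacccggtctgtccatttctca
Afp, chr5:90490464-90490713, plus: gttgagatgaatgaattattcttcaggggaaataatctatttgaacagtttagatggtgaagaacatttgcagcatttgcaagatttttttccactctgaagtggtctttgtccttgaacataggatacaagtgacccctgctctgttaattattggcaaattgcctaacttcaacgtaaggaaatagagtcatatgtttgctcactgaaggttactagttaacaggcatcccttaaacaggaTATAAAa
Ccl9, chr11:83578637-83578886, minus: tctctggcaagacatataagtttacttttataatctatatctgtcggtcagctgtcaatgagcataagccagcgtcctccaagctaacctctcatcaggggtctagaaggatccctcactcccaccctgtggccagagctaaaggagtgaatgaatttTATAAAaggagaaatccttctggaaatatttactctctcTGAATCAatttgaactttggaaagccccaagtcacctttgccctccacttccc
Plac8, chr5:100572246-100572455, minus: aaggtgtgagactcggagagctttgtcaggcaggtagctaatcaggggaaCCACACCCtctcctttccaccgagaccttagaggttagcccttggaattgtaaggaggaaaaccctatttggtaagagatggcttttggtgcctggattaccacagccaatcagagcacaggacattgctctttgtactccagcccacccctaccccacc

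C2cd4a and Afp held TATAAA, Ccl9 held both TATAAA and TGANTCA, Plac8 held CCACNCCC, and the Chga and Serpina3g stretches held none of these letters. Most members had few CpG dinucleotides before the start. The median was 7 CpG in the 250 bases for the 45 members, against 17 for 6913 well expressed protein-coding genes with an entry and 6 for all 27025 genes of the table. The whole table was read at each gene's first listed start and was not limited to protein-coding genes. For members and well expressed genes the start nearest the GENCODE start was taken. At most 10 CpG were found in 28 of 45 members, or 62.2%, compared with 21.8% of the well expressed genes and 64% of all genes in the table. Afp had 1 CpG, Ccl9 2, Serpina3g 4, C2cd4a 9 and Chga 16. The members' promoters thus resembled those of the whole gene table in CpG number more than those of genes of like level. These are descriptions of sequence and no test was made.

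Motif matches were few. TATAAA on the gene's strand stood in 5 members (Afp, C2cd4a, Ccl9, Cela1 and Neurl3), or 11.1%, against 3.24% of the well expressed genes and 8.12% of all genes in the table. The KLF motif stood in 5 members (Far2, Plac8, Rgs2, Ugdh and 1 gene known only by a clone name), or 11.1%, against 21.5% and 15.8%. The AP-1 motif stood in 4 members (Ccl9, Diras2, Kcne3 and Tnfsf14), or 8.89%, against 3.62% and 6.87%. Each motif was counted on its own, whether or not its letters overlapped a match of another. A match is a run of letters, not evidence of binding, and a stretch without one says only that these letters are not in these bases.

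**Figure D1:**
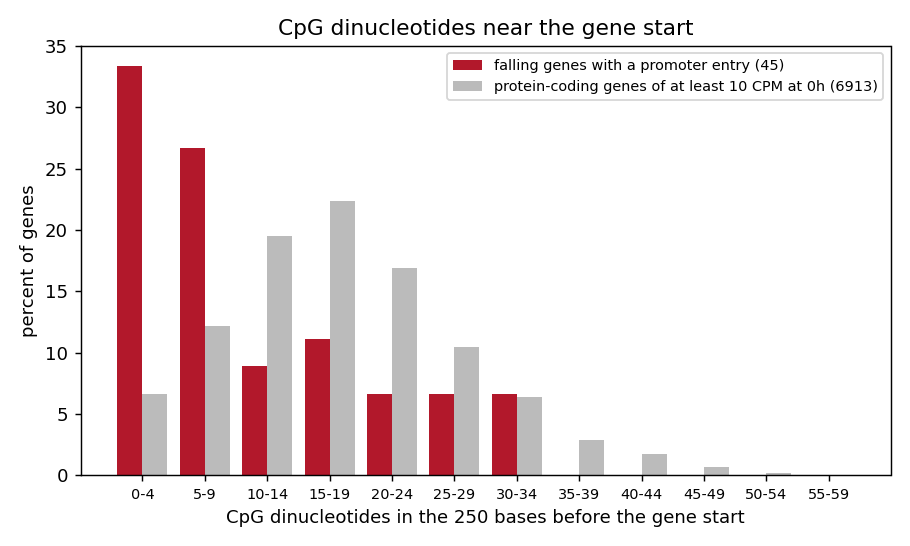
Percent of genes by number of CpG dinucleotides in the 250 bases before the RefSeq start, in bins of 5, for 45 of the 53 genes and for 6913 protein-coding genes with at least 10 CPM at 0h. The members sit mostly in the 2 lowest bins, with medians of 7 and 17 CpG for the 2 sets.

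The times between 0h and 24h did not enter the rule. The fall was gradual in most members: the mean was lower at each time than at the time before in 49 of 53, against 17.5% of the 8450 well expressed genes, a comparison that the choice of the members fixes in part. The 6h level was a median of 83.2% of 0h and the 12h level 70.5%. On the log2 scale the median step was -0.27 from 0h to 6h, -0.24 from 6h to 12h and -0.25 from 12h to 24h, whereas the 8450 genes had medians of 0.01, 0.01 and 0.00. The largest of the 3 steps was the first in 14 members, the second in 20 and the last in 19. The 6h and 12h levels share their 0h libraries, so they are given side by side and not as separate evidence.

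Both 6h libraries lay below both 0h libraries in 47 members, against 28.3% of the 8450 genes. Both 12h libraries lay below both 0h libraries in all 53, against 35.8%. The rule used the 0h and 24h libraries, so counts that involve either time are fixed in part by the choice of the members. Between neighbouring later times, both 12h libraries lay below both 6h libraries in 45 members, against 28.6%, and both 24h libraries below both 12h libraries in 48, against 27.6%. Only Eif5a2 had a 6h mean above its 0h mean, and only Coprs, Cyp4f18 and Slc25a29 had a 12h mean above the 6h mean. No member had a 24h mean above the 12h mean. These 4 genes are named because of their values.

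Each member was placed by the share of its log2 fall from 0h to 24h that it had reached at 6h and at 12h. At least 50% was reached by 6h in 10 early members, between 6h and 12h in 32 middle members, and after 12h in 11 late members. The median member had reached 34.1% at 6h and 65.4% at 12h. Early members stood at a median of 74.4% of 0h at 6h, with 69.3% left at 12h and 59.8% at 24h. Middle members stood at 83.3%, 69.9% and 60.3%, and late members at 86.8%, 78.7% and 60.5%. The classes thus differed at 6h and 12h, as their definition sets, and had similar medians at 24h, where the rule holds every member to at most 65%. The lowest 24h levels differed more: 52.8% of 0h for Far2 among the early, 44.7% for Serpina3g among the middle and 38.8% for C2cd4a among the late members. The classes have no test, and they depend on the border: with 40% in its place 16 members were early and 2 late, and with 60% 2 were early and 17 late.

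**Figure D2:**
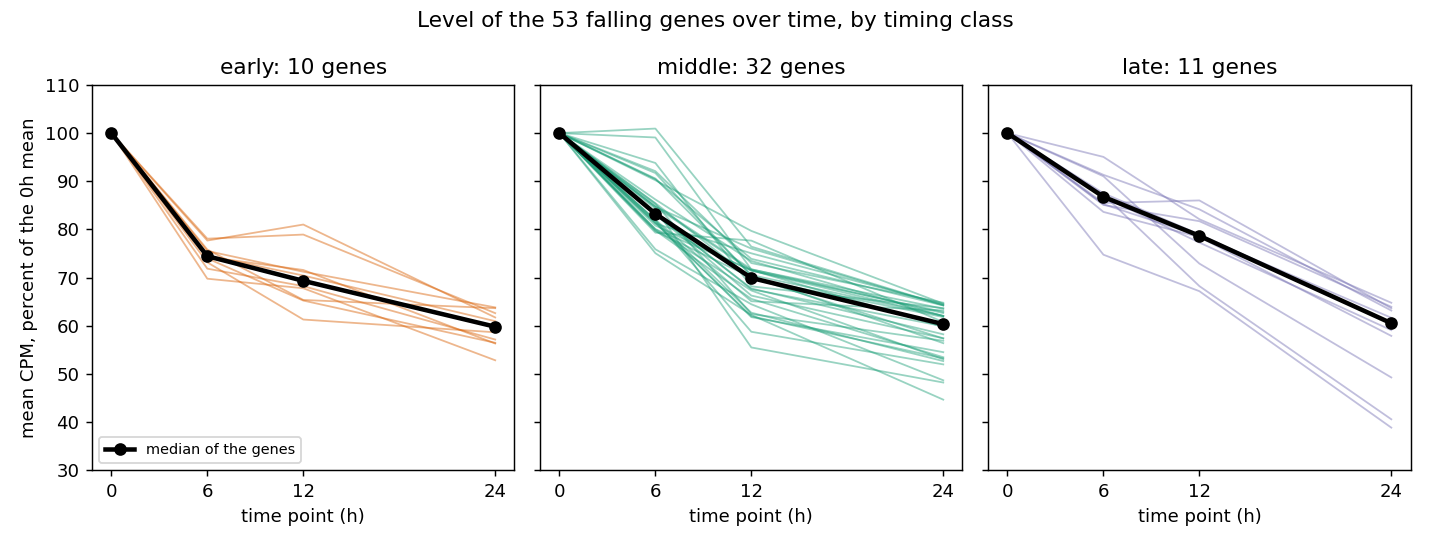
Mean CPM of each of the 53 genes as a percent of its 0h mean against time in hours, in a panel for each timing class, with thin lines for genes and a black line for the class median. The medians are 74.4%, 83.3% and 86.8% at 6h for the early, middle and late genes and 59.8%, 60.3% and 60.5% at 24h.

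The early class held Far2, Glipr1, Dusp6, Egln3, Il21r, Rgs2, Neurl3, Fam84b, Coprs and Slc25a29. Egln3, an oxygen-sensing prolyl hydroxylase, measured 123 and 123 CPM at 0h, 90.2 and 92.1 CPM at 6h, 81.7 and 79.1 CPM at 12h, and 68.7 and 70.5 CPM at 24h. Glipr1, a membrane protein first found in glioma, measured 157 and 158 CPM, then 111 and 122, 116 and 109, and 88.1 and 89.2, with the 6h and 12h libraries overlapping. Slc25a29 had reached 52.3% of its fall at 6h and 43.6% at 12h, so it met the definition of early while lying under the border again at 12h. Its 0h libraries, at 10.3 and 12.9 CPM, were also farther apart than the step between the later times.

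The late class held C2cd4a, Chga, Afp, Ccl9, Cyp11a1, Cyp4f18, Dnph1, Ly86, Msrb2, Urm1 and 1 gene known only by a clone name. Of the 4 leading genes, 3 were thus late and Serpina3g, with 58.8% of its fall reached at 12h, was middle. Chga had reached 15.2% of its fall at 6h and 42.4% at 12h, and Afp 13.3% and 44.6%. C2cd4a had reached 30.8% and 42.1%. The share is of each gene's own fall, so a deep fall can be late without a high level. At 12h C2cd4a stood at 67.2% and Chga at 68.2% of 0h, under the early median of 69.3%, and Afp at 72.9%. On the linear CPM scale, where a given percentage weighs more at high levels, 2 members were late, and with TMM-scaled CPM 6 were late.

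**Figure D3:**
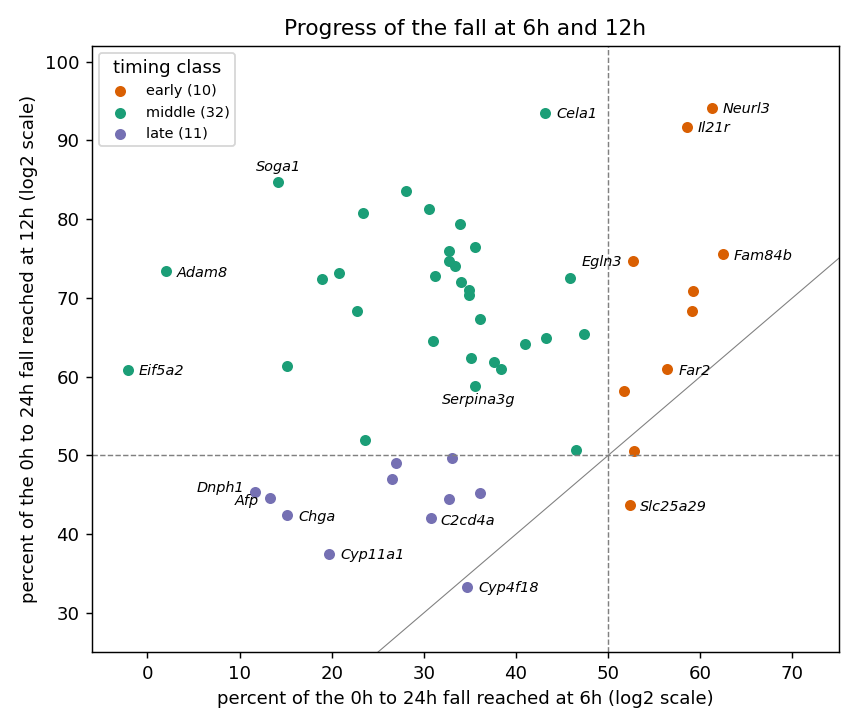
Percent of the 0h to 24h fall (log2 scale) reached at 12h against that reached at 6h, 1 point per gene, coloured by timing class. The broken lines mark the 50% borders and the thin line equal values at both times; Slc25a29 alone lies right of the 6h border and under the 12h border.

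The comparison of 12h with 6h uses libraries that played no part in choosing the genes. It asks whether the level went on falling between those times. By edgeR's quasi-likelihood test at an adjusted p of 0.05, 34 of the 53 members fell, none rose and 19 were not called. Among the 8450 well expressed genes 14.7% were lower at 12h and 10.8% higher, and among all 14263 genes tested 9.79% were lower and 10.9% higher. The members' share was 64.2%. Their log2 change ran from -0.62 to 0.03 with a median of -0.26, against -0.02 for the 8450 genes and 0.00 for all genes tested, and it was below 0 in 52 of 53. By these estimates the steps were small, the largest being a fold of 1.53 in Etv5. None was called when tested against a fold of 1.5, which does not show that each was smaller.

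All 53 members passed the filter on low counts, and the lowest count of a member in any library was 112. By timing class, the test called 28 of the 32 middle members lower, 3 of the 10 early and 3 of the 11 late ones; the classes were themselves cut on the 6h and 12h levels. Without 12h replicate 2 the number called lower was 22, and with only the 4 libraries of 6h and 12h in the fit it was 33. DESeq2 called 26 lower. The call held under each setting tried, other than the fold of 1.5, for 16 of the 34: Adam8, BC035044, Cela1, Chga, Dglucy, Dnmt3l, Gria3, Msto1, Nt5e, Plac8, Rhoj, Soga1, Tfec, Tnfsf14, Tuba8 and 1 gene known only by a clone name.

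**Figure D4:**
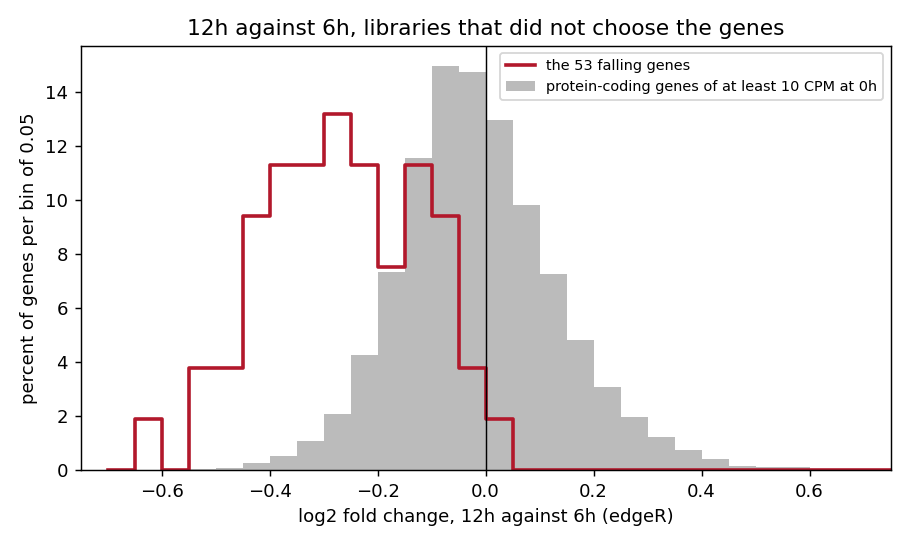
Log2 fold change from 6h to 12h by edgeR in bins of 0.05, as the percent of genes in each bin, for the 53 genes (line) and the 8450 protein-coding genes of at least 10 CPM at 0h (grey). The line runs from -0.62 to 0.03 with a median of -0.26, and the grey bars centre on -0.02; the axis stops short of the highest grey values, which reach 1.15.

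The 6 secreted proteins and cytokines were 3 middle and 3 late members, and 5 of them fell between 6h and 12h. Chga fell by 0.39 on the log2 scale (SE 0.08, edgeR adjusted p = 0.00031) and Afp by 0.35 (SE 0.08, edgeR adjusted p = 0.00157). Tnfsf14 encodes LIGHT, a TNF family ligand, and measured 19.1 and 20.1 CPM at 0h, 16.0 and 15.9 CPM at 6h, 12.6 and 11.6 CPM at 12h, and 10.9 and 10.5 CPM at 24h. No times overlapped for it, and the fall from 6h to 12h was 0.43 (SE 0.09, edgeR adjusted p = 0.00115). Cela1, an elastase-type protease, and Serpine2, an inhibitor of thrombin and plasminogen activators, fell by 0.37 and 0.26. Ccl9, a myeloid CC chemokine, was the exception. It measured 357 and 361 CPM at 0h, 297 and 314 CPM at 6h, 291 and 296 CPM at 12h, and 230 and 229 CPM at 24h, with a change of -0.09 from 6h to 12h (SE 0.04, edgeR adjusted p = 0.113). Without 12h replicate 2 the edgeR adjusted p was 0.0806 for Afp and 0.0744 for Serpine2, and without 6h replicate 1 it was 0.016 for Ccl9.

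Among 8 surface proteins, 5 fell between 6h and 12h. Adam8, a membrane metalloprotease of leukocytes, hardly differed between 0h and 6h: it measured 52.3 and 52.5 CPM at 0h, 51.3 and 52.6 CPM at 6h, 38.4 and 36.7 CPM at 12h, and 33.4 and 33.1 CPM at 24h. The 0h and 6h libraries overlapped and both 12h libraries lay far below them, a fall of 0.50 (SE 0.06, edgeR adjusted p = 8.4e-08). Nt5e, the ectoenzyme CD73 that makes adenosine from AMP, measured 69.6 and 70.7 CPM, then 57.8 and 54.5, 45.5 and 48.9, and 36.9 and 37.5, with no overlap between times. It fell by 0.28 at 12h (SE 0.06, edgeR adjusted p = 0.000478).

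Gria3, a glutamate receptor subunit of neurons, measured 22.3 and 21.2 CPM, then 17.9 and 17.7, 13.9 and 13.4, and 10.9 and 11.9, with no overlap. Its fall from 6h to 12h was 0.42 (SE 0.09, edgeR adjusted p = 0.000919). Il21r, the receptor chain for interleukin-21, moved earlier: its levels of 28.3 and 28.9 CPM at 0h compared with 20.2 and 21.6 CPM at 6h, 18.8 and 16.3 CPM at 12h, and 17.2 and 16.4 CPM at 24h, where the last times overlapped. Its call at 12h, a log2 change of -0.29, was lost with DESeq2 (adjusted p = 0.0779), without 6h replicate 2 (edgeR adjusted p = 0.137) and without 12h replicate 2 (edgeR adjusted p = 0.273). Pcdh7, an adhesion protein of the cadherin family, fell by 0.21, and this call was lost without either 12h library (edgeR adjusted p = 0.0591 and 0.0584) at changes of nearly the same size, -0.21 and -0.22.

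Fcgr4, an activating receptor for IgG, had 48.7% of its 0h level left at 24h. It measured 9.81 and 10.2 CPM at 0h, 7.97 and 7.24 CPM at 6h, 6.43 and 6.49 CPM at 12h, and 4.30 and 5.46 CPM at 24h, without overlap. Its 12h change of -0.26 had an SE of 0.13 and an edgeR adjusted p of 0.169. Ly86, which pairs with the Toll-like receptor relative RP105, and Kcne3, an accessory subunit of potassium channels, were also not called, with changes of -0.20 each. Without 6h replicate 1, Ly86 was called (edgeR adjusted p = 0.0439).

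The 7 signalling regulators were early or middle, and 4 of them fell between 6h and 12h. Rhoj, a small GTPase related to Cdc42, measured 170 and 168 CPM at 0h, 143 and 145 CPM at 6h, 121 and 115 CPM at 12h, and 105 and 104 CPM at 24h, with tight libraries at each time and no overlap. Its 12h fall was 0.32 (SE 0.04, edgeR adjusted p = 1.5e-06). Pkib, an inhibitor of protein kinase A, fell by 0.33, Cby1, a beta-catenin antagonist, by 0.28 and Neurl3, a ubiquitin ligase, by 0.25. These 3 calls were each lost without 1 library: Pkib without 12h replicate 1 (edgeR adjusted p = 0.109), Cby1 without 6h replicate 2 (0.134) or 12h replicate 2 (0.0742), and Neurl3 without 6h replicate 2 (0.104) or 12h replicate 1 (0.109). Pkib was also lost with DESeq2 (adjusted p = 0.0759).

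Rgs2, which speeds the shutdown of G-protein signals, read 75.6 and 81.6 CPM at 0h, 59.1 and 58.2 CPM at 6h, 53.6 and 57.1 CPM at 12h, and 49.0 and 46.9 CPM at 24h. Dusp6, the phosphatase of active ERK, read 16.6 and 19.0 CPM, then 14.3 and 11.3, 12.2 and 12.1, and 10.1 and 10.3. For both, the first step from 0h was the largest, and neither was called between 6h and 12h, with changes of -0.12 (edgeR adjusted p = 0.152) and -0.10 (edgeR adjusted p = 0.583). The 2 libraries of Dusp6 at 6h enclosed both 12h libraries. Diras2, a small Ras-related GTPase, had a change of -0.26 that was not called (edgeR adjusted p = 0.149), but was called without 6h replicate 2 (edgeR adjusted p = 0.0472).

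Of the 4 transcription and chromatin regulators, 3 fell between 6h and 12h. Etv5, an ETS factor of the PEA3 group induced by ERK signals in other tissues, had the largest change of the 53 between 6h and 12h. It measured 10.5 and 10.6 CPM at 0h, 10.7 and 7.12 CPM at 6h, 5.62 and 6.11 CPM at 12h, and 5.18 and 5.0 CPM at 24h. The 6h libraries disagreed, the first at the 0h level and the other well under it. The 12h change was -0.62 (SE 0.15, edgeR adjusted p = 0.00244), and without 6h replicate 1 it was -0.32 (edgeR adjusted p = 0.162), so the size of this step rests on 1 library.

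Tfec, a basic helix-loop-helix factor of the MiT family found in macrophages, measured 90.6 and 87.7 CPM at 0h, 72.9 and 69.4 CPM at 6h, 55.0 and 61.9 CPM at 12h, and 48.2 and 47.1 CPM at 24h. It fell by 0.31 at 12h (SE 0.06, edgeR adjusted p = 7.7e-05). Dnmt3l, the catalytically inactive partner of the de novo DNA methyltransferases, measured 25.6 and 27.1 CPM, then 20.2 and 22.6, 16.2 and 16.4, and 14.4 and 13.7. Its 12h fall was 0.43 (SE 0.09, edgeR adjusted p = 0.000355), and for both genes no times overlapped. Coprs, a cofactor of the arginine methyltransferase PRMT5, went from 25.01 and 24.3 CPM at 0h to 18.9 and 19.6 CPM at 6h and then 19.7 and 19.2 CPM at 12h, with no call.

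The 9 metabolic, redox and oxygen-sensing enzymes were spread over all timing classes, with 2 early, 3 middle and 4 late, and 5 fell between 6h and 12h. Dglucy, the mitochondrial D-glutamate cyclase, measured 89.6 and 90.8 CPM at 0h, 85.4 and 80.1 CPM at 6h, 64.3 and 62.6 CPM at 12h, and 50.2 and 51.5 CPM at 24h. Its fall at 12h was 0.41 (SE 0.05, edgeR adjusted p = 2.2e-07), and no times overlapped. Far2, which reduces fatty acyl-CoA to fatty alcohols, had an earlier course: 67.4 and 64.0 CPM at 0h, 44.6 and 47.0 CPM at 6h, 46.6 and 42.4 CPM at 12h, and 35.8 and 33.6 CPM at 24h. Its 6h and 12h libraries overlapped, with a change of -0.08 (SE 0.06, edgeR adjusted p = 0.427).

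Cyp11a1, which starts steroid synthesis from cholesterol, read 51.7 and 49.98 CPM at 0h, 46.8 and 46.0 CPM at 6h, 43.3 and 42.3 CPM at 12h, and 32.9 and 31.3 CPM at 24h, so that its largest step was the last. It was not called at 12h (log2 change -0.15, edgeR adjusted p = 0.0689). Egln3 fell by 0.21 between 6h and 12h (SE 0.05, edgeR adjusted p = 0.00146). Ugdh, which makes UDP-glucuronate, fell by 0.21, Dnph1, a deoxynucleotide hydrolase, by 0.24, and Akr1c12, an aldo-keto reductase, by 0.35. Leaving out 1 library ended each of these calls, with edgeR adjusted p-values of 0.0552 for Egln3 without 12h replicate 2, 0.242 and 0.15 for Ugdh without 6h replicate 2 and 12h replicate 2, 0.0838 for Dnph1 without 12h replicate 1, and 0.0903 and 0.139 for Akr1c12 without 6h replicate 1 and 12h replicate 2. DESeq2 also ended the calls of Ugdh (adjusted p = 0.0513) and Akr1c12 (adjusted p = 0.0833), and the change of Ugdh was -0.13 without 6h replicate 2. Msrb2, a mitochondrial methionine sulfoxide reductase, and Cyp4f18, a hydroxylase of leukotrienes, were not called. Akr1c12 has close relatives that can share its reads.

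Among the 9 genes of protein and RNA handling, transport, mitochondria and cytoskeleton, 7 were middle members and 6 fell between 6h and 12h. Msto1, which acts in mitochondrial distribution, fell by 0.39 (SE 0.06, edgeR adjusted p = 1.6e-05) and Tuba8, an alpha-tubulin, by 0.37 (SE 0.06, edgeR adjusted p = 7.8e-05). Msto1 read 52.7 and 54.0 CPM at 0h, 47.0 and 49.6 CPM at 6h, 39.3 and 36.0 CPM at 12h, and 32.9 and 33.3 CPM at 24h, with no overlap. Dtnbp1, dysbindin of the lysosome-related organelle pathway, read 223 and 229 CPM, then 180 and 186, 169 and 170, and 146 and 145, and its fall at 12h was 0.15 (SE 0.04, edgeR adjusted p = 0.0108). Abcb9, a lysosomal peptide transporter, read 9.61 and 10.7 CPM, then 7.59 and 9.73, 4.90 and 7.77, and 5.76 and 5.78, with its 6h and 12h libraries overlapping and a log2 change of -0.50 (edgeR adjusted p = 0.0178).

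Several of those calls were lost in other settings. Abcb9 had a log2 change of -0.29 (edgeR adjusted p = 0.303) without 6h replicate 2 and -0.21 (0.415) without 12h replicate 1, and DESeq2 gave -0.49 (adjusted p = 0.0994). Dtnbp1 had -0.12 (edgeR adjusted p = 0.104) without 6h replicate 2, -0.15 (0.0687) without 12h replicate 1 and -0.15 (0.0985) without 12h replicate 2, so its size hardly moved when a 12h library was left out. Eif5a2, a hypusinated translation factor, fell by 0.43 and had an edgeR adjusted p of 0.0799 without 12h replicate 2. Commd9, a subunit of an endosomal sorting complex, was the weakest call (edgeR adjusted p = 0.0484), was lost in most settings and had an edgeR adjusted p of 0.411 without 12h replicate 2. Fkbp11, a prolyl isomerase of the endoplasmic reticulum, Urm1, a sulfur carrier in transfer RNA modification, and Slc25a29, a mitochondrial carrier of basic amino acids, were not called. Urm1 came closest, at an edgeR adjusted p of 0.0519, and was called without 24h replicate 1 (0.0446) and without 24h replicate 2 (0.0448), and with GC and length correction (0.0189).

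Of the remaining 10 genes, whose roles are little known or fit no group above, 6 fell between 6h and 12h. BC035044 had the smallest edgeR adjusted p of all members, 1.5e-09, with a fall of 0.51 (SE 0.05). It measured 107 and 106 CPM at 0h, 85.6 and 89.2 CPM at 6h, 64.0 and 61.4 CPM at 12h, and 55.5 and 55.5 CPM at 24h, with wide gaps between all times. Plac8 measured 975 and 979 CPM, then 804 and 850, 744 and 742, and 624 and 630, and fell by 0.19 (SE 0.04, edgeR adjusted p = 0.001). Soga1 fell by 0.49 and Cyb5d1, with a haem-binding domain, by 0.32, the latter with changes of -0.20 (edgeR adjusted p = 0.163) without 6h replicate 1 and -0.19 (0.237) without 12h replicate 1. DESeq2 gave an adjusted p of 0.0623 for Cyb5d1.

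Serpina3g fell by 0.31 at 12h (SE 0.08, edgeR adjusted p = 0.00754). Without 6h replicate 2 the change was -0.17 and the edgeR adjusted p became 0.288, without 12h replicate 2 it became 0.0815, and DESeq2 gave 0.0544. C2cd4a had a change of -0.19 (SE 0.10, edgeR adjusted p = 0.191), although both of its 12h libraries lay below both 6h libraries. With GC and length correction its change was -0.34 (edgeR adjusted p = 0.00935), so the size of this step depends on that correction. Its GC content, 67.7%, was the highest of the members. Glipr1 and Fam84b were not called, at -0.09 and -0.12. Glipr1 was called without 6h replicate 1 (edgeR adjusted p = 0.0192).

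**Figure D5:**
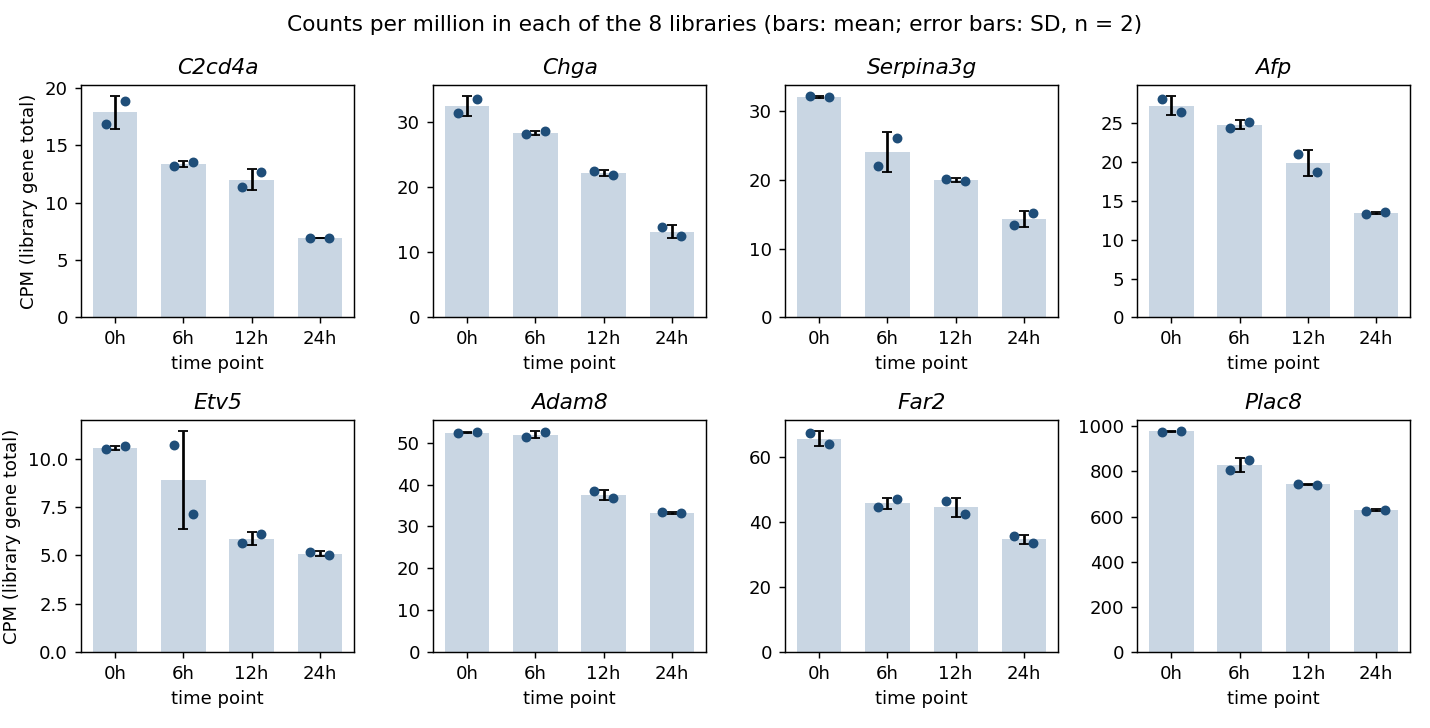
CPM against time for 8 of the 53 genes, with a point for each library, bars for the mean and error bars for the SD (n = 2). The 24h points lie below the 0h points in every panel, and Etv5 shows a wide spread at 6h, from 7.12 to 10.7 CPM.

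Genes other than the members were counted from 16 lists, some of them families or pathways of members. The lists of clade B serpins, SREBP2 targets, ribosome biogenesis, purine, pyrimidine and folate synthesis, MHC class II and the MLL-AF9 programme hold no member. At 24h against 0h, edgeR called 69 of 176 tested non-member genes lower and 40 higher, against 24.8% lower and 26.1% higher among all 14263 genes tested, whose median log2 change was 0.02, and 36.3% lower and 24.3% higher among the 8450 well expressed genes. Ribosome biogenesis and polyamine genes were mostly lower, with 19 of 22 lower and 1 higher at a median log2 change of -0.27. Nhp2, a small nucleolar protein, fell by 0.58 and Fbl, the nucleolar methyltransferase fibrillarin, by 0.56. Purine, pyrimidine and folate synthesis had 13 of 19 lower and 3 higher, with Gart, a purine synthesis enzyme, falling by 0.45 and Mthfd2, a mitochondrial folate enzyme, rising by 1.04. Between 6h and 12h these 2 lists had 20 of 22 and 11 of 19 lower, against 14.7% of the 8450 well expressed genes.

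Relatives of the leading members were few among the genes tested. Of the 3 tested clade A serpins beside Serpina3g, all 3 were higher at 24h, at levels of at most 1.39 CPM, and 11 of the 19 listed genes had 0 counts in all libraries. Serpina1a, a plasma antitrypsin, had 0 counts in both 0h libraries and 20 and 15 counts at 24h. Of 6 clade B serpins, 2 were lower and 1 was higher. Of 2 tested granin pathway genes besides Chga, Pam, which amidates peptides, fell by 0.28 and Furin was not called. Afm was the only other albumin family gene tested, at 1.41 ± 0.33 CPM at 0h and 1.06 ± 0.34 CPM at 24h (SD, n = 2), and C2cd4b the only other C2CD4 gene tested; neither was called.

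Other lists moved both ways. Of 6 other TNF ligands none was lower and 3 were higher, among them Tnf, which rose by 0.49. Of 12 other cytokine receptors 4 were lower and 5 higher, with Csf2rb, the shared chain of the interleukin-3 and GM-CSF receptors, falling by 0.35 and Csf2ra rising by 0.45. Of 17 other progenitor transcription factors 6 were lower and 5 higher, and Tfeb, a MiT family relative of Tfec, rose by 0.72. Of 7 other DNA methylation enzymes none was lower and 2, Dnmt3a and Tet3, were higher. Chemokines and their receptors had 3 lower and 3 higher of 12, MHC class II genes 3 lower of 9, and MLL-AF9 programme genes 6 lower and 3 higher of 16.

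Lipid synthesis genes were more often higher than lower between 6h and 12h. Over all lists, with members included, 45 of 186 tested genes were lower and 36 higher in that comparison. Among the 8450 well expressed genes 14.7% were lower and 10.8% higher. SREBP2 targets had 7 lower and 7 higher of 25 at 24h against 0h, but 1 lower and 18 higher between 6h and 12h, when Fdft1, a squalene synthesis enzyme, rose by 0.66. Fatty acid and ether lipid genes besides Far2 had 6 lower and 4 higher of 19 at 24h. With Far2 included, none of 20 was lower and 8 were higher between 6h and 12h.

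Some markers of other cells differed between 0h and 24h as well. Calls in this paragraph are edgeR's for 24h against 0h, where 24.8% of all 14263 genes tested were lower and 26.1% higher. Among the 8450 well expressed genes 36.3% were lower and 24.3% higher, so counts from a few markers can be near these shares. Summed mast cell and basophil markers went from 237 and 244 CPM at 0h to 178 and 179 CPM at 24h, with 4 of 5 tested genes lower, although Fcer1a, Prss34 and Tpsb2 were at 0 in all libraries. Much of that drop came from the highest marker, a gene left out by name. Without it the sums went from 129 and 128 CPM at 0h to 107 and 104 CPM at 24h. Macrophage and dendritic markers went from 74.97 and 81.6 to 64.6 and 59.6 CPM, with 2 lower and 1 higher of 4 tested and C1qa at 0. That drop was carried by Adgre1, a macrophage surface receptor, with means of 64.6 CPM at 0h and 41.5 CPM at 24h, and the others went the opposite way, from summed levels of 12.5 and 14.9 CPM to 21.2 and 19.9 CPM. Megakaryocyte markers had 3 of 3 lower, and stroma and endothelium markers 1 of 2 lower with Kdr at 0. Late neutrophil markers went from 98.8 and 104 to 147 and 146 CPM, with 6 of 8 tested genes higher and 2 lower. T and NK cell markers had 2 of 2 higher with Cd3e, Cd3g, Ncr1 and Gzma at 0, erythroid markers had none of 3 called, and leukaemic progenitor markers had 6 lower and 3 higher of 12. Immediate early genes, which can respond to cell handling, went from 182 and 181 to 406 and 412 CPM, with 10 of 12 higher. The part of these shifts in the members' falls was not tested.

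Members lay on 16 chromosomes, and chromosome 12 held the most, with 6 of its 291 well expressed genes, or 2.06%. Over all chromosomes it was 53 of 8450, and the next highest share was 1.27%, on chromosome 13. Of these, Dglucy, Chga, Serpina3g and Slc25a29 lie within 8.06 Mb on chromosome 12. The 22 other well expressed genes of that stretch went both ways: 8 were lower and 6 higher at 24h by edgeR, and their median 24h level was 106% of 0h, against 101.04% for the 8450 genes. The stretch was picked after the members' positions were seen.

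Members had a somewhat short total of annotated exons. Their median exon length, over all annotated exons of a gene, was 3217 bases against 4755 for the 8450 genes. This is not the length of a transcript. Their median GC content was 50.1% against 49.3%. Exons of 18 members overlap another gene, 15 of them on the opposite strand, where reads cannot be told apart if counting ignored strand, and the strand setting was not given in the sources used here. For 6 of them, Cyb5d1, Cyp4f18, Fam84b, Far2, Glipr1 and Msto1, the other gene held at least 10% as many counts as the member. Tuba8 and Eif5a2 have close paralogs, so their counts are uncertain as well.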

How the data were processed

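Deposited files hold the authors' raw counts per Ensembl gene ID, 1 column per library for 8 libraries, with 20394546 to 26041347 counts on gene rows. Per the submitters' processing notes the tools were STAR, SAMtools 1.3 and HTSeq 2.0.3 with build mm10; the annotation release, strand setting and STAR version were not given in the sources used here. Per the labels' protocols, total RNA and an Illumina TruSeq library kit were used. HTSeq's 5 summary rows stayed out of all totals; fragments on no gene feature were 5.47% to 9.15% of fragments by time mean. Of 47069 IDs, 46574 matched GENCODE M21.

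CPM on library totals chose the members. The test was edgeR 4.0.16 (R 4.3.3; quasi-likelihood, TMM, filterByExpr by time, Benjamini-Hochberg over 14263 genes, all 8 libraries, 4 residual degrees of freedom), and its standard errors were taken from the F statistic. It was tested on simulated data. Calls used an adjusted p of 0.05. The biological coefficient of variation was 3.10%. Alternatives were DESeq2 1.42.0, its size factors, other filters, a replicate block, the 4 libraries compared, a fold of 1.5, GC and length correction, each library left out, and other member rules and timing borders. Deviations of libraries with the same replicate number correlated at -0.02 to 0.02, so no shared deviation was seen and the main fit did not pair them. A pairing with little effect on the counts would not show in this.

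Named genes are the 4 leading genes, the 15 lowest ratios, the 4 highest in each timing class, the 8 smallest adjusted p-values at 12h against 6h, up to 3 per functional class, genes at the borders and up to 3 per list. Other members were named after their values were seen. Members, lists and functional classes were chosen with earlier results of these data known. The 17 genes left out by name are not described, except Adgre1 as a macrophage marker. Some of them enter the summed marker levels. The result of 1 marker list is not reported here.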

Additional observations from a re-analysis of the deposited data

Results flagged for a closer look

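Fragments that counting assigned to no gene feature, which no comparison above uses, made up a larger share of the later libraries. Their share was 5.47% ± 0.32 in the 0h libraries and 6.21% ± 0.56 in those of 6h. It was 8.63% ± 0.45 by 12h and 9.15% ± 0.17 by 24h (SD, n = 2 each). The 24h level was above that of both 0h libraries, which is what drew attention to it. Its part in the members' levels was not tested. CPM here divides by counts on gene rows only, so these fragments do not enter the divisor.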

How the results depend on the processing

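The number of members depended on the cut-offs: 91 with TMM-scaled CPM, 102 at 5 CPM, 39 at 20 CPM, 26 at a ratio of 0.60, 140 at 0.70, and 51 to 94 when 1 library was left out (94 without 24h replicate 1). Late members numbered 6 with TMM-scaled CPM and 2 on the linear scale; a border of 0.4 gave 16 early and 2 late, and 0.6 gave 2 early and 17 late. Against a fold of 1.5, 0 members were lower at 12h than at 6h, and the listed genes had 0 lower and 6 higher at 24h against 0h and 0 lower and 2 higher at 12h against 6h. Leaving out 1 library gave 22 to 35 members lower (22 without 12h replicate 2), 60 to 79 listed genes lower and 33 to 40 higher at 24h, and 28 to 46 lower at 12h against 6h (28 without 12h replicate 2). With the replicate block 33 members were lower at 12h, and 68 and 44 listed genes were lower at 24h and 12h, so the block ended 1 member's call. The sign changed for 4 members that were not called. Over the fits that each leave out 1 library, the change ranged from -0.26 to 0.059 for Dusp6 (above 0 without 6h replicate 1; -0.096 with all libraries), -0.043 to 0.091 for Slc25a29 (below 0 without 12h replicate 1; 0.027 with all), -0.055 to 0.019 for Coprs and -0.064 to 0.014 for Cyp4f18 (both above 0 without 6h or 12h replicate 2). GC and length correction gave -0.036 for Slc25a29 and 0.018 for Coprs. The cause was not tested. With 2 libraries per time, changes of the size seen in genes near 10 CPM were not always detectable.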
